A study of Homo sapiens with 18 samples.

Results

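HG3 and MEC2 are cell lines derived from chronic lymphocytic leukemia (CLL), a leukemia of mature B cells. Both are EBV-positive, and by the IGHV genes, which encode the variable part of the immunoglobulin heavy chain, the study classed MEC2 with mutated CLL and HG3 with unmutated CLL. Here the 3 unstimulated MEC2 libraries were set against the 3 unstimulated HG3 libraries, 6 of the 18 libraries of the series, to show how the lines differed before any agonist was given. All 6 came from cells kept in RPMI with 10% FBS, with no treatment. The same comparison was repeated in the 6 libraries of both lines that had been stimulated with CpG-ODN2006 at 2.5 μg/ml for 4 h. The genes described are the 13833 of 56609 gene symbols whose mean over the 6 unstimulated libraries was at least 1 CPM (CPM, the counts of a gene relative to the size of its library, scaled with TMM factors). Each line is a single transformed line, so a difference between them is one between these lines and cannot be told apart from a difference between mutated and unmutated CLL. Nothing in the labels says that the replicates of a line were grown as separate cultures, and P values then measure only the spread between these samples, which may be technical.

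The libraries held 21228773 to 46642886 counts in HG3 and 23586794 to 35101314 in MEC2. HG3 replicate 2 stood apart from the other HG3 libraries: its log2 CPM correlated with theirs at 0.879 and 0.886, against 0.962 between those, and mitochondrial genes took 20.2% of its counts, against 8.16% and 8.21% in the other HG3 libraries and 6.34% to 7.44% in MEC2. Among the libraries given CpG, MEC2 replicate 2 was similar, with 19.7%. All 7 B-cell markers, MS4A1, CD79A, CD79B, PAX5, CD22 and BLNK among them, were present in both lines, with summed levels of 2175 to 2797 CPM in HG3 and 2662 to 3256 CPM in MEC2, and all 6 erythroid markers were at 0. A count of 0 allows up to 3 counts, or 0.0654 to 0.150 CPM in a single library on the same TMM scale. Such limits cover counting error only, because copies of a read made by PCR may have been counted.

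A B cell carries 1 immunoglobulin, built from a heavy chain and either a kappa or a lambda light chain, and all cells of a CLL clone share it. CLL cells usually carry CD5, CD23 (the product of FCER2), CD200 and ROR1 on their surface together with the B-cell antigen CD20 (MS4A1). Recurrent genetic changes in CLL include loss of 13q14, which removes the DLEU2 locus with its microRNAs, and loss of the short arm of chromosome 17.

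In edgeR's quasi-likelihood test, 852 of the 13833 genes were higher in MEC2 (6.16%) and 1004 were higher in HG3 (7.26%), together 13.4%, at a Benjamini-Hochberg adjusted p under 0.05 and a |Log2FC| of at least 1. Over all 24561 tested genes, low ones included, the shares were 3.93%, 4.74% and 8.66%. Log2FC is given throughout as MEC2 minus HG3, so a negative value is a higher level in HG3. Many differences were large: 410 genes were at least 8-fold higher in MEC2 and 473 in HG3. The ranges of the 3 libraries of each line did not overlap for 2619 genes with MEC2 higher (18.9%) and for 2507 with HG3 higher (18.1%). Protein-coding genes made up 758 of the calls in MEC2 and 846 in HG3. Among 497 lncRNAs, 26 were higher in MEC2 (5.23%) and 56 in HG3 (11.3%). The counts of calls rested in part on single libraries: without MEC2 replicate 1 they were 509 and 659, and without HG3 replicate 2 they were 970 and 1150.

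**Figure D1:**
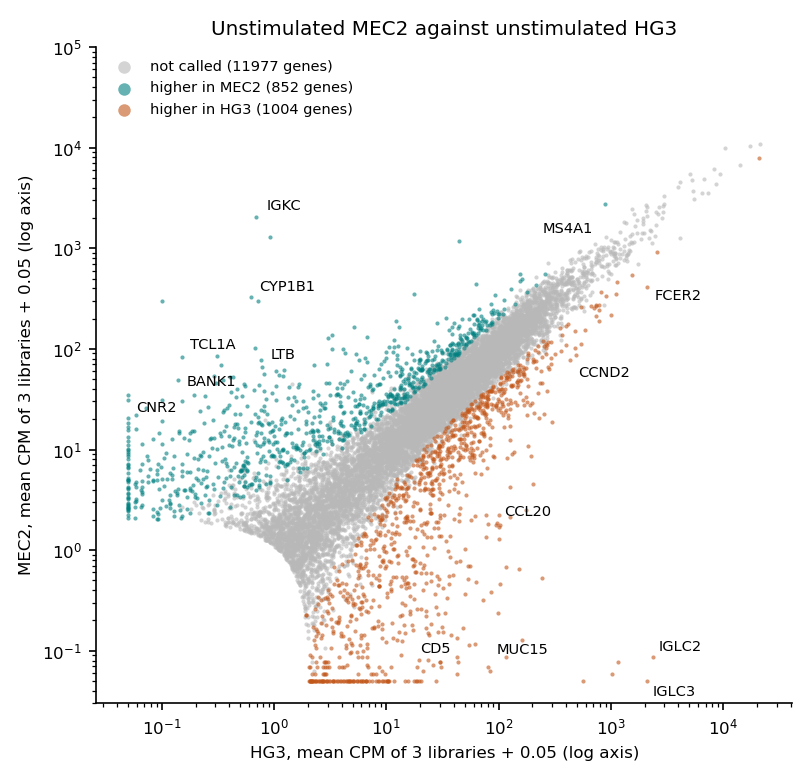
Mean CPM of the 3 unstimulated libraries of HG3 (horizontal) and MEC2 (vertical), each plus 0.05 on log axes, for 13833 genes, colored by the edgeR call. The 852 genes called higher in MEC2 and the 1004 called higher in HG3 flank the 11977 that were not called, and the light chain genes IGKC, IGLC2 and IGLC3 lie at opposite corners.

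The immunoglobulin genes separated the lines completely at the light chain. IGKC, the constant region of the kappa chain, was at 1723, 2042 and 2415 CPM in the MEC2 libraries and at 0.262, 1.55 and 0.102 CPM in HG3 (Log2FC 11.87 ± 0.893 SE, adjusted p = 1.41e-05). IGLC2, a constant region of the lambda chain, was at 2329, 3781 and 954 CPM in HG3 and at 0.111, 0 and 0 CPM in MEC2 (Log2FC -15.69 ± 0.938 SE, adjusted p = 8.25e-06). IGLC3, its neighbor in the lambda locus, was at 1888, 3520 and 858 CPM in HG3 and had no count in MEC2, at least 58663-fold lower against 3 counts over the group. Every MEC2 library was thus a kappa library and every HG3 library a lambda library. Without the HG3 library with most counts of IGKC, replicate 2, its Log2FC was 13.42, and that of IGLC2 was -19.26 without MEC2 replicate 1 and -15.09 without MEC2 replicate 3. IGLC2 and IGLC3 are near-identical copies, so the split of reads between them is uncertain.

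The heavy chain constant region IGHM did not pass the test, at 8114, 5253 and 2368 CPM in HG3 and 4899, 5436 and 4030 CPM in MEC2 (Log2FC -0.13, adjusted p = 0.898). IGHD, the constant region of IgD, was higher in HG3, at 814, 809 and 596 CPM against 250, 257 and 129 CPM (Log2FC -1.80, adjusted p = 0.00409). JCHAIN, which joins IgM into polymers, was called higher in HG3 (Log2FC -1.71, adjusted p = 0.0494), but lost the call when any of 5 of the 6 libraries was left out, HG3 replicate 3 being the exception, and its Log2FC was -0.97 without HG3 replicate 1. IGHG1, the constant region of IgG1, was at 16.1, 18.4 and 23.3 CPM in MEC2 and at 0.153, 0 and 0 CPM in HG3. IGHG4 and IGHE were also called higher in MEC2 (Log2FC 5.16 and 4.40), and IGHE lost its call without MEC2 replicate 3 and had a Log2FC of 5.46 without HG3 replicate 1. Of the 11 constant and joining chain genes at 1 CPM or more, 4 were higher in each line (36.4%, against 6.16% of all genes for MEC2 and 7.26% for HG3).

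Of 262 immunoglobulin variable segments, 10 reached 1 CPM and 8 of these were called, named here after their values were seen. They were 4 in each line, 40% of the 10, against 6.16% of all genes for MEC2 and 7.26% for HG3. In MEC2, IGHV4-59 was at 304, 365 and 233 CPM and IGKV4-1 at 1158, 1230 and 1484 CPM, against at most 2.40 CPM for either in any HG3 library. IGKV3D-11 and IGHV4-34 were called higher in MEC2 as well, at lower levels of 32.4 to 36.3 and 2.75 to 3.68 CPM. In HG3, IGHV1-2 was at 1124, 159 and 411 CPM and absent from all MEC2 libraries. IGLV2-23 was at 1804, 945 and 709 CPM and IGLV3-21 at 1446, 1002 and 635 CPM in HG3, with at most 0.0830 CPM in MEC2. IGHV1-3, at 8.61 to 11.1 CPM, was the other segment called higher in HG3. Some variable segments resemble each other closely, so that reads of one may have been counted on another. Why HG3 held both lambda segments at such levels was not tested.

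**Figure D2:**
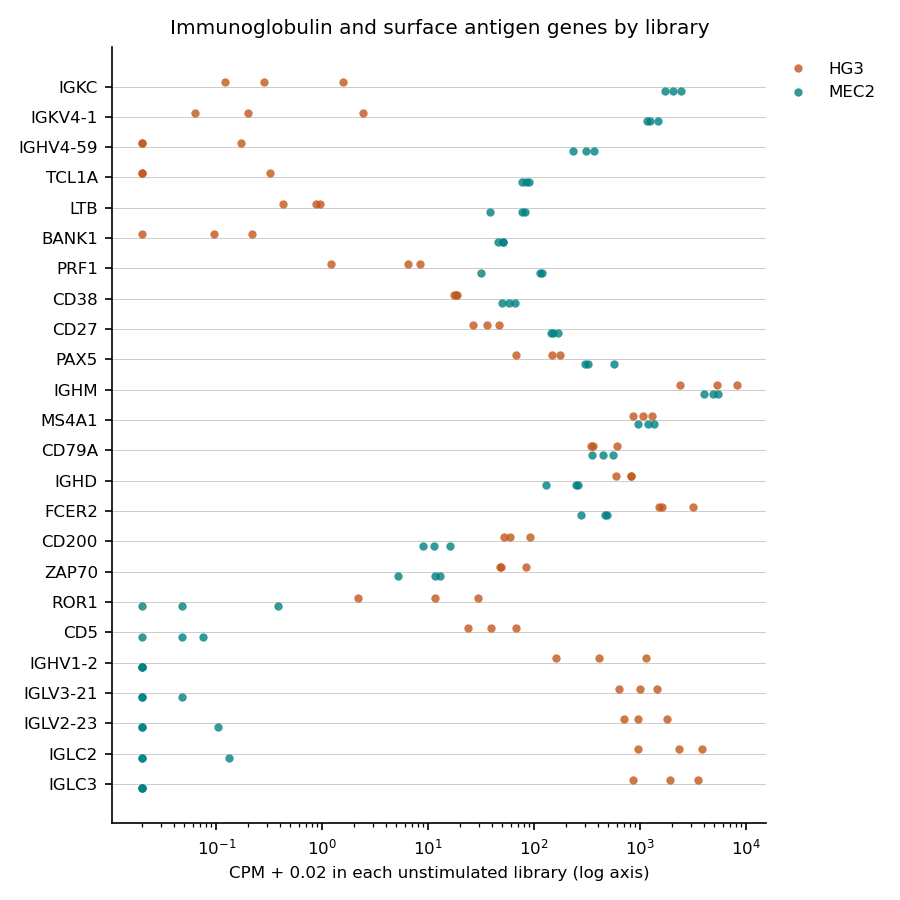
CPM plus 0.02 on a log axis in each unstimulated library, with 3 HG3 and 3 MEC2 points per gene, for immunoglobulin genes, surface antigens and other B-cell genes. The kappa genes lie above 1000 CPM in MEC2 and the lambda constant genes at 858 CPM or more in HG3, whereas the points of the lines overlap for IGHM, MS4A1 and CD79A.

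Of 47 B-cell and CLL surface antigens, 10 were higher in each line (21.3%, where 6.16% of all genes were higher in MEC2 and 7.26% in HG3). CD5, a scavenger-type receptor that marks CLL cells among B cells, was at 23.9, 39.3 and 67.1 CPM in HG3 and at 0.0277, 0 and 0.0557 CPM in MEC2, where it had 3 counts in all. The ratio of counts was 1392 (95% interval 476 to 6750 from counting error, adjusted p = 8.25e-06). CD5 lies on chromosome 11 at positions 61102489 to 61127852 (plus strand, GRCh38). ROR1, a receptor for Wnt5a, was at 11.5, 2.15 and 29.4 CPM in HG3 and at 0.360, 0 and 0.0278 CPM in MEC2 (Log2FC -6.67 ± 1.18 SE, adjusted p = 0.00376), with no overlap between the lines despite the wide spread within HG3. The Log2FC of ROR1 was -5.63 without HG3 replicate 3 and -9.50 without MEC2 replicate 1, and that of CD5, fitted at -10.31, was -11.09 without MEC2 replicate 3. CD200, an immune-inhibitory ligand, was at 58.5, 52.1 and 91.2 CPM in HG3 against 8.86, 11.4 and 16.1 CPM (Log2FC -2.48, adjusted p = 0.000671).

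FCER2, the low-affinity IgE receptor CD23, was at 1491, 3148 and 1592 CPM in HG3 and at 468, 487 and 278 CPM in MEC2 (Log2FC -2.34 ± 0.372 SE, adjusted p = 0.00193). FCRL2, an inhibitory Fc receptor-like molecule, was also higher in HG3 (Log2FC -4.93), and CD9, CD83, CD86, CD44 and CD70 complete the 10. On the side of MEC2, the complement receptor CR1 was at 36.5, 37.9 and 38.5 CPM against 4.38, 3.10 and 7.51 CPM (Log2FC 2.91, adjusted p = 0.000416). The memory B-cell antigen CD27 was at 150, 168 and 144 CPM against 26.4, 46.8 and 35.6 CPM (Log2FC 2.09), and the inhibitory Fc receptor FCGR2B reached 24.0 to 27.6 CPM against at most 3.42 CPM. The other antigens called higher in MEC2 were CD38, CD72, SIGLEC10, FCRL4, FCRLA, CD1C and FCGR2A. Without MEC2 replicate 1, 6 of these antigens in place of 10 were called higher in MEC2.

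MS4A1 did not pass the test (Log2FC 0.13, adjusted p = 0.852). It was at 1281, 848 and 1055 CPM in HG3 and at 1346, 1190 and 943 CPM in MEC2.

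Of 20 genes used as prognostic or diagnostic markers in CLL, 5 were higher in MEC2 and 3 in HG3 (25% and 15%, against 6.16% and 7.26% of all genes). TCL1A, a coactivator of the kinase AKT, was at 84.2, 89.3 and 76.2 CPM in MEC2 and at 0, 0.300 and 0 CPM in HG3 (Log2FC 10.29 ± 0.835 SE, adjusted p = 1.99e-05). The Log2FC of TCL1A was 14.57 without HG3 replicate 2, which held its only counts in HG3, and 9.48 and 9.61 without HG3 replicates 1 and 3. CRY1, a repressor of the circadian clock, was at 49.6, 51.0 and 32.2 CPM in MEC2 and at 1.05 CPM or less in HG3 (Log2FC 6.63, and 7.64 without HG3 replicate 2). TTC39C was higher in MEC2 as well (Log2FC 2.82), and so was CD38. ZAP70, a kinase of the T-cell receptor pathway whose presence in CLL cells goes with unmutated IGHV genes, was at 48.3, 83.3 and 47.3 CPM in HG3 against 12.9, 11.6 and 5.12 CPM in MEC2 (Log2FC -2.59, adjusted p = 0.00152). CLNK, an adaptor of immune receptor signaling, and the phosphatase DUSP22 were the other genes higher in HG3 (Log2FC -3.17 and -1.29), and DUSP22 lost its call without MEC2 replicate 2. Without HG3 replicate 2, 6 of the list in place of 3 were higher in HG3.

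Autosomal protein-coding genes with the smallest P values were in the main present in one line and near 0 in the other. CNR2, the cannabinoid receptor of immune cells, was at 32.5, 30.0 and 30.7 CPM in MEC2 with no count in HG3, at least 1095-fold higher. SMAD1, a transducer of BMP signals, was at 23.2, 23.2 and 19.8 CPM in MEC2 with 1 count in all of HG3 (ratio 2309, 95% interval 414 to 91227). BANK1, an adaptor of B-cell receptor signaling, was at 45.6, 51.0 and 51.0 CPM in MEC2 and at 0.196, 0 and 0.0761 CPM in HG3 (Log2FC 8.78 ± 0.577 SE, adjusted p = 8.25e-06). Each of these genes varied little among the MEC2 libraries. The Log2FC of BANK1 was 9.86 without HG3 replicate 1.

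The lectin-like receptor CLEC2B (at least 648-fold higher), the homeobox factor ISX (Log2FC 7.07), the transporter SLC12A8 (6.27), the cytokine LTB (6.49), the RNA-binding protein RBPMS2 (6.71), the adaptor SH2D2A (7.42) and the transferrin receptor TFR2 (ratio 1723, 95% interval 309 to 68099) complete the 10 autosomal protein-coding genes other than immunoglobulin genes with the smallest P values in MEC2. Among those with the largest Log2FC at 20 CPM or more in MEC2, CYP1B1, which oxidizes estrogens and polycyclic hydrocarbons, was at 427, 366 and 181 CPM against at most 0.914 CPM, and the deubiquitinase USP2 at 391, 350 and 147 CPM against at most 1.50 CPM (Log2FC 9.01 and 8.98). CEND1, HMX3, TMPRSS3 and MAP3K20 belonged to the same group. CEND1 was at 18.6, 16.9 and 41.8 CPM in MEC2 with 3 counts in all of HG3 (ratio 938, 95% interval 321 to 4551), and MAP3K20 had a Log2FC of 8.05. With 1 HG3 library left out, the Log2FC of USP2 was 8.27 without replicate 1 and 10.24 without replicate 2, that of MAP3K20 7.34 without replicate 1 and 8.71 without replicate 3, and that of SH2D2A 8.26 without replicate 1.

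In HG3, both subunits of soluble guanylate cyclase, the receptor for nitric oxide, were present and near 0 in MEC2. GUCY1B3 was at 181, 80.9 and 221 CPM in HG3 and at 0, 0.120 and 0.111 CPM in MEC2 (Log2FC -11.04 ± 0.703 SE, adjusted p = 8.25e-06). GUCY1A3 was at 64.1, 31.8 and 87.6 CPM in HG3 and at 0, 0.200 and 0 CPM in MEC2 (Log2FC -10.06 ± 0.859 SE, adjusted p = 2.97e-05). Without MEC2 replicates 1, 2 or 3 the Log2FC of GUCY1A3 was -9.41, -14.08 and -9.42, and without MEC2 replicate 1 that of GUCY1B3 was -10.40. The genes are neighbors on chromosome 4, at 155666726 to 155737059 (GUCY1A3) and 155758992 to 155807811 (GUCY1B3).

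The mucin MUC15 was at 54.7, 138 and 59.8 CPM in HG3 with 1 count in all of MEC2 (ratio 7041, 95% interval 1263 to 2.78e+05). DAPK1, a death-associated kinase, was at 115, 84.3 and 257 CPM against 0.720, 0.480 and 0.612 CPM (Log2FC -7.96 ± 0.529 SE, and -7.34 without HG3 replicate 3). The metalloproteinase MMP7, at 20.2, 23.1 and 39.2 CPM in HG3, had no count in MEC2, at least 901-fold lower. PRRX1, a transcription factor of mesenchyme, was at 26.4 to 70.0 CPM in HG3 and at most 0.0277 CPM in MEC2. GLIS2, RND3, GPM6A, LAMP3, ALDH1L1 and PLPPR1 belonged to the same group of genes, each with at least 16.5 CPM in every HG3 library and at most 0.640 CPM in any MEC2 library. Among noncoding genes, PAX8-AS1, TMEM132D-AS1 and FAM30A were higher in HG3, and IFNG-AS1, GAS6-AS1 and DLEU2 in MEC2. With 5 CPM as a minimum in every library of a line, 15 genes of MEC2 and 17 of HG3 had no count in the other line.

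DLEU2 is the host transcript of a pair of microRNAs that share their seed and are lost with 13q14 in CLL. Their mature sequences are shown because this locus differed between the lines. Both lie inside DLEU2 on the minus strand of chromosome 13 (RefSeq, GRCh38.p14), hsa-miR-15a-5p at positions 50049167 to 50049188 and hsa-miR-16-5p at 50049027 to 50049048. Capitals mark the seed, bases 2 to 8. The microRNAs themselves were not measured in these libraries.
hsa-miR-15a-5p: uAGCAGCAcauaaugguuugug
hsa-miR-16-5p: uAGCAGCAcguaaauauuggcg

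DLEU2 (chromosome 13, 49956670 to 50125720) was at 0.371, 0.100 and 0.406 CPM in HG3 and at 9.02, 5.88 and 16.5 CPM in MEC2 (Log2FC 5.08 ± 0.671 SE, adjusted p = 0.000572). TRIM13, a ubiquitin ligase gene within the same interval (49995888 to 50020481), was at 2.29, 1.85 and 1.93 CPM in HG3 and at 16.6, 12.7 and 15.3 CPM in MEC2 (Log2FC 2.87, adjusted p = 0.000648). DLEU1, which overlaps DLEU2 on the other strand, stayed under 1 CPM on average, with 1 count in all of HG3 and 0.720 to 2.11 CPM in MEC2 (ratio 167, 95% interval 29.5 to 6638). The ranges of the lines did not overlap for any of these 3 genes.

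Of the genes at 1 CPM or more, the nearest on either side were not called. SPRYD7, before DLEU2, was at 5.01, 8.05 and 8.96 CPM in HG3 and at 8.86, 10.8 and 11.6 CPM in MEC2 (Log2FC 0.51), and RNASEH2B, after DLEU1, was at 23.9, 40.0 and 21.0 against 45.2, 49.6 and 46.3 CPM (Log2FC 0.74), and neither passed the test. ARL11, a small GTPase gene farther before DLEU2 (49628507 to 49633872), was higher in MEC2, at 6.42, 6.48 and 8.10 CPM against 1.18, 0 and 0.279 CPM in HG3 (Log2FC 3.77, adjusted p = 0.0304). The tumor suppressor RB1, named after its values were seen, did not pass it either (Log2FC 0.47, adjusted p = 0.466). Of 27 genes of the 13q14 region at 1 CPM or more, 8 were higher in MEC2 (29.6%, against 6.16% of all genes) and 0 in HG3, with a median Log2FC of 0.86. Beside DLEU2 and TRIM13 these were CKAP2 (Log2FC 1.99), ARL11, UTP14C, RCBTB2 and INTS6, among others. Without MEC2 replicates 1, 2 or 3 the 8 calls became 3, 3 and 4.

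Along the genome, the median Log2FC of 224 windows of 10 Mb with at least 20 genes lay between -0.79 and 1.15, and reached 0.50 in either direction in 12 of them. The highest median was that of chromosome 13 from 40000001 to 50000000, with 51 genes, 45 of them above 0 and 25 called higher in MEC2 against 0 in HG3. Chromosome 13 as a whole had a median of 0.59 over 236 genes, 20.3% of them higher in MEC2, and chromosome 15 a median of 0.47 over 429 genes, 14.9% of them higher in MEC2, where the share over all 13833 genes was 6.16%. The lowest medians were those of the first windows of chromosome 17. From 1 to 10000000 the median was -0.79 over 145 genes, with 129 below 0, 33 higher in HG3 and 5 higher in MEC2. From 10000001 to 20000000 it was -0.79 over 59 genes, with 49 below 0, 12 higher in HG3 and 4 higher in MEC2. Over all 13833 genes, 7.26% were higher in HG3. From 20000001 on, the windows of chromosome 17 had medians of -0.25 to 0.10. Neighboring genes are not independent, and these medians are given with no test. DNA copy number was not measured.

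**Figure D3:**
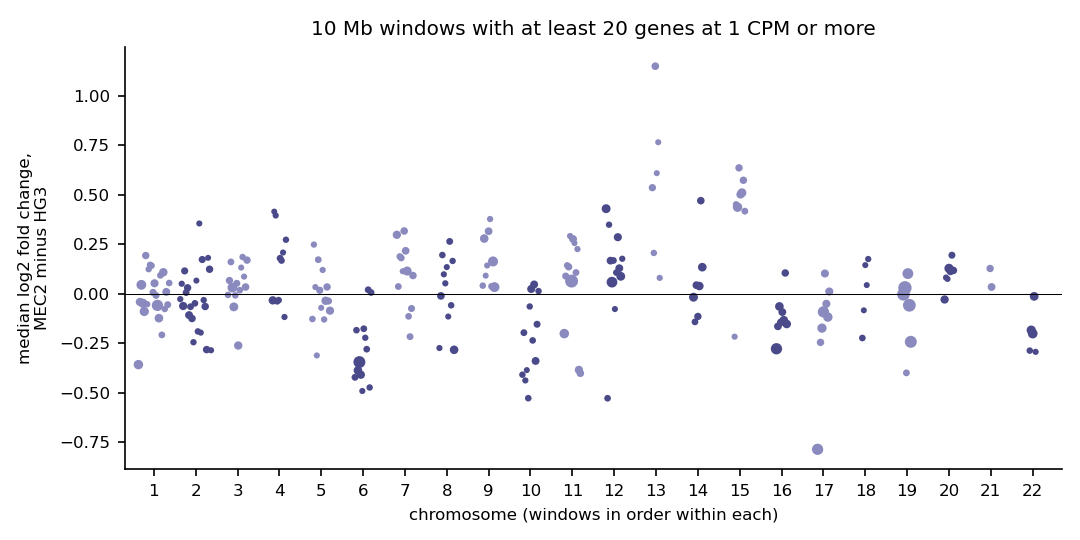
Median log2 fold change (MEC2 minus HG3) of the genes in each 10 Mb window with at least 20 genes at 1 CPM or more, in order along chromosomes 1 to 22, with larger points for windows with more genes. The first windows of chromosome 17 lie lowest, at -0.79, a window of chromosome 13 lies highest, at 1.15, and all but one of the windows of chromosome 15 lie above 0.4.

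Of 20 members of the BCL2 family, 4 were higher in HG3 (20%, against 7.26% of all genes) and 0 in MEC2. BBC3, which encodes the death-promoting protein PUMA, was at 30.7, 40.3 and 43.8 CPM in HG3 against 7.83, 8.52 and 4.03 CPM in MEC2 (Log2FC -2.49, adjusted p = 0.000965). The others were the survival genes BCL2L10 (Log2FC -3.55, and -4.48 without MEC2 replicate 3), BCL2L1 (-1.46), which encodes BCL-XL, and BCL2A1 (-1.42). BCL2 itself did not pass the test, at 238, 106 and 461 CPM in HG3 and at 199, 180 and 116 CPM in MEC2.

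Of 45 genes of mitosis and DNA replication, 17 were called higher in MEC2 (37.8%, against 6.16% of all genes) and 0 in HG3. The ranges of the lines did not overlap for 34, all with MEC2 higher, where 18.9% of all genes had such ranges. Their median Log2FC was 0.91. BUB1B, a spindle checkpoint kinase, was at 191, 195 and 192 CPM in MEC2 and at 79.0, 49.9 and 62.6 CPM in HG3 (Log2FC 1.59 ± 0.266 SE, adjusted p = 0.00264). RFC3, a subunit of the clamp loader of DNA replication, had a Log2FC of 1.58 and AURKA, a kinase of the mitotic spindle, of 1.33. MKI67, named after its values were seen, had a Log2FC of 0.82 and did not pass the test. Without MEC2 replicate 1 the 17 calls became 7, and without MEC2 replicate 3 or HG3 replicate 3 they became 11. In bulk libraries, more dividing cells and more RNA of these genes per cell cannot be told apart.

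Of 30 genes of cell cycle entry, 7 were higher in MEC2 and 1 in HG3 (23.3% and 3.33%, against 6.16% and 7.26% of all genes). E2F2, a transcription factor of S phase (Log2FC 1.58), the kinase CDK2 (1.23) and the CDK inhibitor CDKN2C (1.96) were higher in MEC2, with CCNE2, E2F1, E2F5 and CDKN2A. CCND2, the cyclin of early G1 phase, went the other way, at 374, 532 and 396 CPM in HG3 and at 56.2, 50.2 and 124 CPM in MEC2 (Log2FC -2.50, adjusted p = 0.00136). Leaving out any 1 library other than HG3 replicate 2 brought the 7 calls to between 2 and 4. Without HG3 replicate 2 there were 9 calls in MEC2 and 3 in HG3, and without MEC2 replicate 3 there were 2 in each line. CDK2 lost its call without HG3 replicate 3 or MEC2 replicates 1 or 3.

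NF-κB transcription factors are held inactive by IκB proteins, which they induce in turn. Of 36 NF-κB factors and regulators, 10 were higher in HG3 (27.8%, against 7.26% of all genes) and 0 in MEC2, with a median Log2FC of -0.47. NFKBIZ, which encodes the atypical IκB protein IκBζ, was at 125, 90.2 and 217 CPM in HG3 and at 35.5, 23.7 and 23.9 CPM in MEC2 (Log2FC -2.38, adjusted p = 0.00135). BIRC2, a ubiquitin ligase of the pathway, was at 69.8, 68.2 and 85.0 CPM against 30.0, 19.4 and 19.4 CPM (Log2FC -1.70), and TNIP3, an inhibitor of NF-κB, had a Log2FC of -3.74. The others were NFKBIE, NFKBIA, TNFAIP3, TNIP1, BCL3, the subunit NFKB2 and the survival gene BCL2A1. Without HG3 replicate 2 the count rose to 15, and without MEC2 replicates 2 or 3 it fell to 6 and 5.

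**Figure D4:**
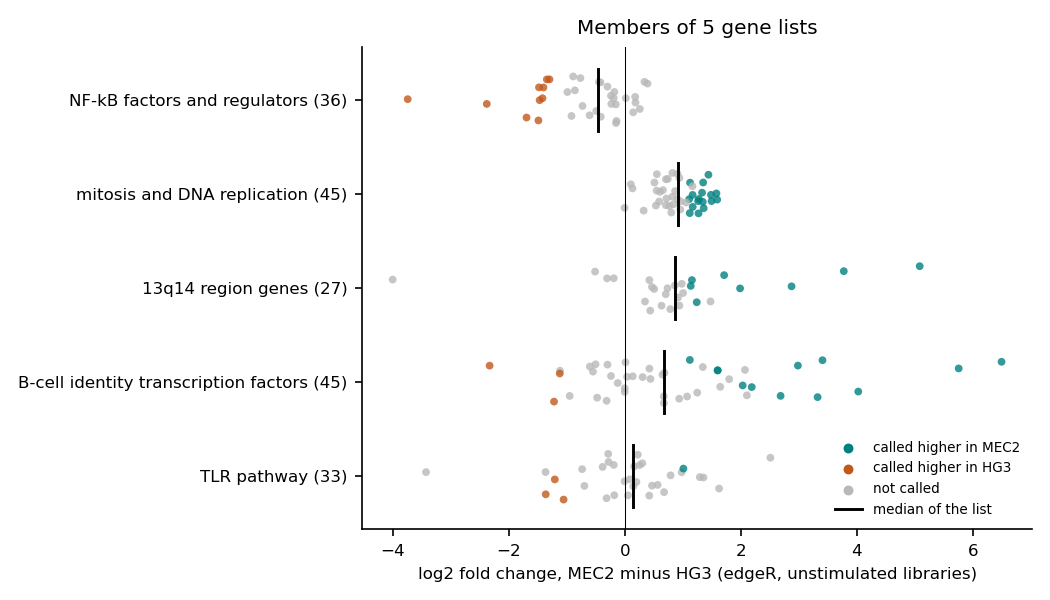
Log2 fold change (MEC2 minus HG3) of each gene at 1 CPM or more in 5 gene lists, with called genes in color and the median of each list as a bar. The median is -0.47 for NF-κB genes, against 0.91 for mitosis and DNA replication, 0.86 for 13q14 and 0.67 for B-cell transcription factors.

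EBV latency III proteins, above all LMP1 and EBNA2, raise a set of host genes in infected B cells, many of them through NF-κB. Of 38 such genes, 9 were higher in HG3 (23.7%, against 7.26% of all genes) and 2 in MEC2 (5.26%, near the 6.16% of all genes), with a median Log2FC of -0.72. CD86, a costimulatory ligand, was at 113, 112 and 159 CPM in HG3 and at 27.5, 20.9 and 38.1 CPM in MEC2 (Log2FC -2.15). CCR7, the receptor that directs lymphocytes to lymph nodes, was at 364, 455 and 807 CPM against 103, 99.1 and 130 CPM (Log2FC -2.29). HES1 and CCL17 were the genes higher in MEC2 (Log2FC 2.96 and 3.54), and the call of CCL17 was lost without HG3 replicates 1 or 3 or MEC2 replicates 1 or 3, with a Log2FC of 4.35 without HG3 replicate 2 and 2.95 without MEC2 replicate 3. Without MEC2 replicates 2 or 3, 5 genes in place of 9 were higher in HG3.

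TLR9, the receptor for CpG DNA, was too low to be tested. It had 2 counts in HG3 replicate 1 and 0 in the other 5 unstimulated libraries, so that a difference was not detectable with these counts. IL6 had 11, 0 and 4 counts in HG3 and none in MEC2 and did not pass the test (adjusted p = 0.279). The study's real-time PCR went the other way, with more basal IL6 mRNA in MEC2 than in HG3. Of 33 genes of the TLR pathway, 1 was higher in MEC2 (UNC93B1, which carries TLR9 to the endosome, Log2FC 1.01, adjusted p = 0.0458) and 3 in HG3 (IRF5, LY86 and TICAM1, Log2FC -1.36, -1.21 and -1.06). These shares were 3.03% and 9.09%, against 6.16% and 7.26% of all genes. Without HG3 replicate 2 there were 2 calls in MEC2 and 5 in HG3, without HG3 replicate 3 there were 3 in MEC2, and without MEC2 replicates 1 or 3 there was 1 in HG3. The calls of UNC93B1, LY86 and TICAM1 were lost without any 1 of the MEC2 libraries, that of UNC93B1 also without HG3 replicates 1 or 3, that of LY86 without HG3 replicate 1 and that of TICAM1 without HG3 replicate 3.

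Among 45 transcription factors of B-cell identity and differentiation, 12 were higher in MEC2 (26.7%, against 6.16% of all genes) and 3 in HG3 (6.67%, near the 7.26% of all genes), with a median Log2FC of 0.67. RUNX1 was at 85.2, 89.8 and 51.9 CPM in MEC2 and at 10.3, 4.45 and 13.8 CPM in HG3 (Log2FC 2.98, adjusted p = 0.00082), and TOX had a Log2FC of 5.76, which was 6.64 without HG3 replicate 2 and 4.81 without MEC2 replicate 3. PAX5, the factor that keeps B cells in their lineage, FOXO1, TCF3, ID3, NFATC1, SOX4, MYBL1, BCL11A and AFF3 were also called higher in MEC2. ID2, an inhibitor of E proteins such as TCF3, was higher in HG3, at 147, 261 and 287 CPM against 48.5, 53.4 and 36.2 CPM (Log2FC -2.33), as were ZBTB32 and ETV6, which lost their calls without MEC2 replicates 1 or 2, ETV6 also without HG3 replicates 1 or 3. Without MEC2 replicates 1, 2 or 3 the 12 calls became 7, 7 and 6.

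Of 52 genes of B-cell receptor signaling, 8 were higher in MEC2 (15.4%, against 6.16% of all genes) and 5 in HG3 (9.62%, near the 7.26% of all genes). The inositol kinase ITPKB was at 82.7, 71.7 and 80.1 CPM in MEC2 and at 19.0, 15.2 and 18.7 CPM in HG3 (Log2FC 2.15, adjusted p = 0.000305). Higher in HG3 were the inhibitory receptors LAIR1 and PECAM1 (Log2FC -5.12 and -2.88) and the adaptor GAB1 (-1.93), with PRKCD. Without MEC2 replicates 1, 2 or 3 there were 4, 4 and 5 calls in MEC2 and 1, 3 and 3 in HG3, and without HG3 replicates 1 or 3 there were 2 and 3 in HG3. Without MEC2 replicate 1, LAIR1 and GAB1 lost their calls, LAIR1 also without HG3 replicate 1. The Log2FC of LAIR1 was -6.49 without MEC2 replicate 2 and -4.51 without MEC2 replicate 3.

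**Figure D5:**
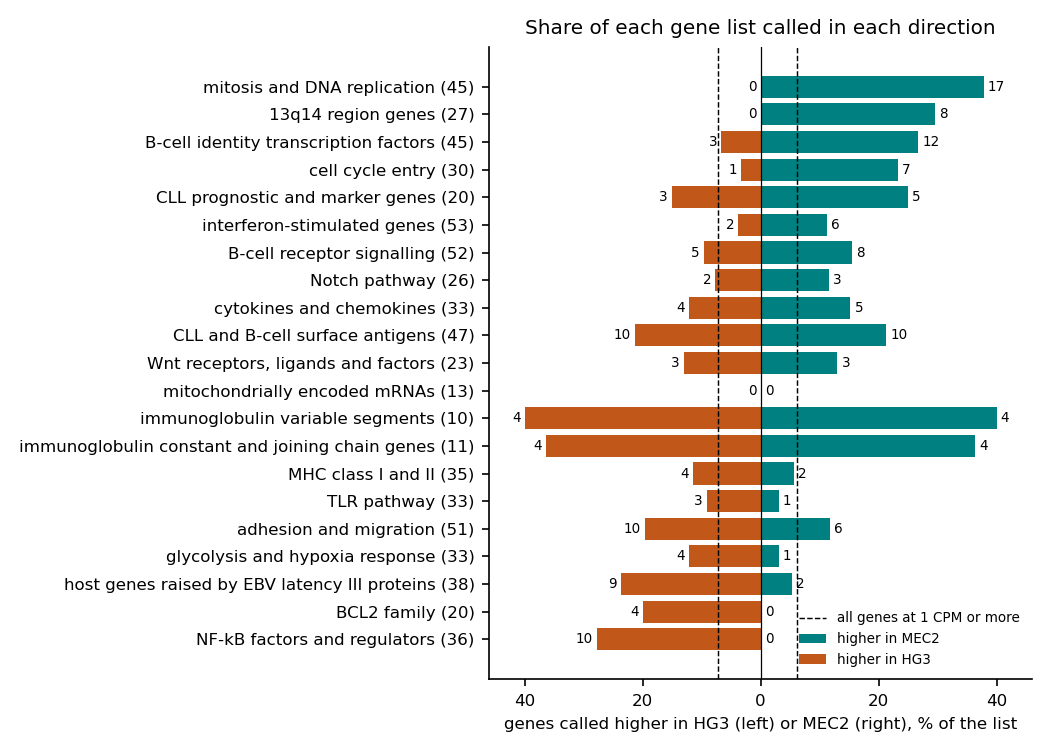
Share of the genes at 1 CPM or more in each list (their number in parentheses) called higher in HG3 (left) and in MEC2 (right), with the number of calls at each bar and dashed lines at the shares over all 13833 genes, 7.26% and 6.16%. The list of NF-κB genes extends to the side of HG3, and those of mitosis, 13q14 and B-cell transcription factors to the side of MEC2.

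Of 33 cytokines and chemokines, 5 were higher in MEC2 and 4 in HG3 (15.2% and 12.1%, against 6.16% and 7.26% of all genes). LTB, which with TNF family partners shapes lymphoid tissue, was at 81.1, 76.8 and 38.4 CPM in MEC2 and at 0.937, 0.850 and 0.406 CPM in HG3 (Log2FC 6.49 ± 0.473 SE, adjusted p = 1.31e-05). IL32 and IL16 were higher in MEC2 too (Log2FC 3.17 and 1.89). CCL20, the ligand of CCR6, was at 42.8, 120 and 121 CPM in HG3 and at 1.66, 1.88 and 1.67 CPM in MEC2 (Log2FC -5.77, adjusted p = 1.75e-05). TNFSF4, the ligand of OX40, and XCL1 had Log2FC of -5.52 and -3.63, which were -4.90 without HG3 replicate 3 and -3.03 without HG3 replicate 2. Without HG3 replicate 2, 7 genes in place of 4 were higher in HG3.

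Of 51 genes of adhesion and migration, 6 were higher in MEC2 and 10 in HG3 (11.8% and 19.6%, against 6.16% and 7.26% of all genes). The integrin ITGAX was at 22.3, 21.8 and 8.99 CPM in MEC2 and at 1.50, 1.60 and 0.228 CPM in HG3 (Log2FC 4.01). RGS1, which dampens chemokine receptors, was at 159, 211 and 161 CPM in HG3 against 45.3, 35.1 and 20.2 CPM (Log2FC -2.40), and ACKR3, a scavenging receptor of CXCL12, had a Log2FC of -2.76. CD44, VIM, LGALS1, SELPLG, ITGA5, CXCR4, PECAM1 and CCR7 complete those higher in HG3. Without MEC2 replicates 1 or 2 the 6 calls in MEC2 became 3 and 2.

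Of 35 MHC genes, 4 of class II were higher in HG3 and 2 genes were higher in MEC2, 11.4% and 5.71%, against 7.26% and 6.16% of all genes. HLA-DRA was at 2651, 2449 and 2636 CPM in HG3 and at 939, 988 and 843 CPM in MEC2 (Log2FC -1.48, adjusted p = 0.00334), and HLA-DQB1 had a Log2FC of -2.03. HLA-DRB1 (Log2FC -1.15) lost its call without any 1 of the MEC2 libraries, and HLA-DPB1 was the other gene. Without MEC2 replicate 1, 2 or 3, 2 of the class II calls were left in number. Higher in MEC2 were HLA-DQA2 and ERAP2, which trims peptides for class I (Log2FC 5.30 and 2.08). HLA genes are variable between people and close copies of each other, so their counts are uncertain. Of 53 interferon-stimulated genes, 6 were higher in MEC2 and 2 in HG3 (11.3% and 3.77%, against 6.16% and 7.26% of all genes). CMPK2 had no count in HG3 and 11.2, 11.2 and 14.2 CPM in MEC2, at least 432-fold higher, and GBP1 and SAMHD1 had Log2FC of 3.56 and 2.28, whereas IFIT2 and GBP4 were higher in HG3 (Log2FC -1.85 and -2.09, the latter -1.47 without HG3 replicate 3). Without HG3 replicate 2, 4 interferon-stimulated genes were higher in HG3.

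Of 26 genes of the Notch pathway, 3 were higher in MEC2 (HES1, DTX1 and ADAM10) and 2 in HG3, the ligands DLL3 and DLL1 (Log2FC -5.06 and -3.10). These were 11.5% and 7.69% of the list, against 6.16% and 7.26% of all genes. Of 23 Wnt receptors, ligands and factors, 3 were higher in each line (13%, against 6.16% of all genes for MEC2 and 7.26% for HG3). Without MEC2 replicate 3 there was 1 in MEC2. The receptors LRP6, FZD3 and FZD6 were higher in MEC2 (Log2FC 4.14, 3.58 and 2.70), and ROR1, the ligand WNT10A and the feedback gene AXIN2 in HG3. ADAM10 and AXIN2 lost their calls without any 1 of the 6 libraries, FZD6 without any 1 of the MEC2 libraries or HG3 replicate 1, and LRP6 without MEC2 replicate 3. The Log2FC of LRP6 was 3.53 without HG3 replicate 1, that of FZD3 4.47 without HG3 replicate 2 and that of FZD6 3.54 without HG3 replicate 3. Of 33 genes of glycolysis and the response to hypoxia, 4 were higher in HG3 and 1 in MEC2 (12.1% and 3.03%, against 7.26% and 6.16% of all genes). Those of HG3 were CA9, a carbonic anhydrase with no count in MEC2 (at least 286-fold lower), the prolyl hydroxylase EGLN3, NDRG1, and EPAS1, which encodes HIF-2α and was at 72.6, 67.3 and 407 CPM against 12.3, 14.3 and 5.93 CPM (Log2FC -4.08, and -2.69 without HG3 replicate 3). ENO2 was called higher in MEC2 (Log2FC 1.11) and lost its call without any 1 library other than HG3 replicate 2.

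Genes of other cell types were in part present. PRF1, which encodes perforin of cytotoxic lymphocytes, was at 114, 119 and 31.6 CPM in MEC2 and at 1.20, 6.40 and 8.40 CPM in HG3 (Log2FC 4.06, adjusted p = 0.00277), and GNLY was higher in MEC2 as well (Log2FC 3.85, adjusted p = 0.0289). The 6 NK-cell markers, of which 3 had a mean of 1 CPM or more, summed to 36.8 to 130 CPM in MEC2 and to 2.33 to 10.6 CPM in HG3. PRF1 alone made up most of the sum in each MEC2 library. The 8 T-cell markers, of which 3 were at 0 in each line, summed to 88.1 to 141 CPM in HG3 and 35.8 to 74.7 CPM in MEC2. COL1A1 was higher in HG3, at 31.4, 79.0 and 47.4 CPM against 9.46, 9.76 and 11.1 CPM (Log2FC -2.38). The 8 monocyte markers summed to at most 5.28 CPM in any library. The part of other cells in these values was not tested.

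The differences were then looked for in the CpG-stimulated libraries, which share no library with the unstimulated comparison but come from the same replicate series. There, 5.64% of 24593 tested genes were higher in MEC2 and 6.45% were higher in HG3. Of the 852 genes higher in unstimulated MEC2, 744 were called higher in CpG-stimulated MEC2 as well, and of the 1004 higher in unstimulated HG3, 876 were called again, together 87.3%. No gene was called in the opposite direction, and the sign was the same for all 852 and for 1002 of the 1004. CD5 was at 21.9, 58.3 and 66.5 CPM in HG3 and at 0.400, 0.0228 and 0 CPM in MEC2 after CpG.

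Of the 8 genes of 13q14, 7 were called again after CpG. Of the 17 genes of mitosis and DNA replication, 8 were called again, and of the 10 NF-κB genes 4, against 87.3% of all called genes. NFKBIZ was not called because its Log2FC of -0.89 missed the fold threshold, while its adjusted p in edgeR's test was 0.0431. The first window of chromosome 17 had a median of -0.78 after CpG, and the window of chromosome 13 a median of 0.98. Whether the difference between the lines depended on stimulation was tested over all 12 libraries with edgeR's interaction term, and 0 of 27980 genes passed an adjusted p of 0.05, with 1015 at an unadjusted p under 0.05. When each stimulated sample was paired with the unstimulated one of its replicate series (replicate block), 10 genes passed, with 633 at an unadjusted p under 0.05.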

How the data were processed

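RNA of HG3, MEC2 and PCL12 cells was sequenced by the authors, and the 6 unstimulated libraries of HG3 and MEC2 were compared here. Per the labels, RNA was extracted with a Promega kit and libraries were made with stranded Lexogen QuantSeq, which reads transcript ends, whereas the study's methods give Qiagen for the extraction. The submitters' processing notes list FastQC, MultiQC, Trimmomatic, STAR, featureCounts and hg38, without versions. The values are the deposited counts of reads per gene symbol, without normalization. Which annotation was counted, and whether duplicates were removed, is not given in the sources used here. Samples were grouped by their labels, and every column of the table was mapped to a sample.

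Genes with at least 10 counts over the 6 libraries were tested (24561 of 33864 with at least 1 count) with edgeR 4.0.16 in R 4.3.3 (TMM factors, robust quasi-likelihood, 4 residual degrees of freedom, no covariate), with Benjamini-Hochberg adjustment over all tested genes. Errors are SE of Log2FC. PCL12 was left out of the fit, a choice made with earlier results in view, and entered only the fit of all 18 libraries. Where a line had no count, folds are bounds against 3 counts over the group, and with 1 to 3 counts they are ratios of counts with an exact 95% interval. Gene positions came from GENCODE 44 (GRCh38), matched by symbol for 36273 of 56609 symbols, of which 1150 matched by an older symbol. The scripts were tested on simulated data.

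The genes, lists and rules were chosen with earlier results of these data known. Named genes are, among autosomal genes called without overlap between the lines, the 10 protein-coding genes per direction with the smallest P, the 10 with the largest Log2FC at 20 CPM or more, 3 noncoding genes, up to 3 called genes per list and direction, and genes the study discusses. Remaining called members are named for some of the lists only, and other genes are marked as chosen after their values were seen. Some genes and 1 gene list are not reported here. Alternatives were DESeq2 1.42.0, limma 3.58.1 with and without voom, other scalings and filters, larger fits, a replicate block, other thresholds, and each library left out. Chosen after seeing the data were the libraries left out of the CpG comparison and the interaction, and HG3 replicate 2 left out with mitochondrial genes. Python 3.11.15 was used for summaries.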

Additional observations from a re-analysis of the deposited data

Results flagged for a closer look

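The difference between MEC2 and HG3 was itself different after CpG for 4 of the genes named in the report, by edgeR's interaction term with stimulated and unstimulated samples paired by replicate number within a line (replicate block). TMPRSS3 had a fitted interaction of 6.1214 on the log2 scale (adjusted p = 0.00113), whose size depends on the fit because HG3 had no count after CpG, and which is neither a measured fold nor a bound. TMPRSS3 was at 97.2, 96.0 and 60.5 CPM in unstimulated MEC2 and 93.4, 117 and 56.0 CPM after CpG, against at most 0.600 CPM in unstimulated HG3 and no count in HG3 after CpG. SMAD1 had an interaction of -4.8066 (adjusted p = 0.0032), with 19.8 to 23.2 CPM in unstimulated MEC2 and 11.9 to 16.4 CPM after CpG, and in HG3 with 0, 0 and 0.0254 CPM before and 0.288, 0.0607 and 0.279 CPM after. BANK1 had an interaction of -2.6325 (adjusted p = 0.0164), with 45.6 to 51.0 CPM in unstimulated MEC2 and 27.0 to 42.2 CPM after CpG, and in HG3 with at most 0.196 CPM before and 0.371 to 0.637 CPM after. HG3 was near the counting limit for these 3 genes, so the sizes of their interactions depend on a few counts. COL1A1 had an interaction of 1.5522 (adjusted p = 0.0392), with 31.4, 79.0 and 47.4 CPM in unstimulated HG3 and 26.8, 46.2 and 41.8 CPM after CpG, and in MEC2 with 9.46 to 11.1 CPM before and 16.2, 35.1 and 19.5 CPM after. The highest COL1A1 values of the lines, 79.0 CPM in HG3 and 35.1 CPM in MEC2, came from libraries rich in mitochondrial counts. These were HG3 unstimulated replicate 2 (20.2%) and MEC2 CpG replicate 2 (19.7%), and the fit with the block was not repeated without them. None of the 4 genes passed without the block.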

How the results depend on the processing

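No gene called in the unstimulated comparison changed direction under any alternative run. The counts of genes higher in MEC2 and in HG3 were 1164 and 1323 with DESeq2, 989 and 1014 with limma-voom, 1136 and 1262 without a filter, and 1087 and 1161 in a fit of all 18 libraries. A test against a fold of 2 gave 484 and 583. Leaving out 1 library gave 509 to 970 and 659 to 1150, the lowest without MEC2 replicate 1 and the highest without HG3 replicate 2. With library totals in place of TMM factors the median Log2FC moved from -0.02 to 0.10 and the counts were 964 and 882, 52.2% of calls higher in MEC2 in place of 45.9%. With the replicate number as a block across the lines they were 987 and 1019. Deviations of libraries with the same number correlated at -0.0279, 0.148 and -0.0636, so that the numbers were not taken to pair the lines. Under this block EPAS1 and USP2 lost their calls (adjusted p = 0.195 and 0.163). Over all tested genes, 1826 were called alike before and after CpG (85.8% of 2128 unstimulated calls), and 1193 to 2058 with 1 library left out. The lowest count, without MEC2 unstimulated replicate 1, was 95.7% of 1246 calls. The lowest share was 74.3%, without HG3 CpG replicate 3. The interaction gave 0 genes with each library left out in turn and 10 with the replicate block. Of 2689 values for named genes, 2592 kept their direction and side of the threshold, 91 lost the call and 6, all of IGHGP, gained it. Of 130 called named genes, the fold of 43 moved by over 1.5 times with 1 library left out, 34 of them under 1 CPM in the lower line and the others BCL2L10, EPAS1, FCGR2B, FZD3, FZD6, GBP4, JCHAIN, TNFSF4 and XCL1. The cause of these shifts was not tested. TLR9 had too few counts to be tested and IL6 had few, for reasons that were not tested.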
